A study of Mus musculus with 6 samples.

Results

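Cyclic nucleotide phosphodiesterases were followed through cultured mouse aortic cells that lack or carry Nt5e, the gene of CD73, the cell-surface enzyme that makes adenosine from AMP. The family was represented by 10 genes, picked by symbol from the 25683 genes of the deposited table: Pde4a, Pde4b, Pde4d, Pde7a, Pde7b and Pde8a, Pde1a, Pde3a and Pde3b, and Pde5a. Poly(A)-selected RNA came from 3 libraries labelled Nt5e knock-out (KO, libraries 1 to 3) and 3 labelled wild type (WT, libraries 4 to 6). The series title speaks of adenosine made by CD73, of elastin induced by TGF-beta 2 and of contraction. Both genotypes were described as a primary line of aortic vascular smooth muscle cells, grown at 10% serum and then held at 0.5% serum for 48 h, a medium named for smooth muscle differentiation. No other allele or agent was named for either genotype, nor the strain, age or number of mice, nor how the deletion was made or whether a culture was a clone. Nothing in the labels says that libraries came from separate cultures or animals, and the p-values below therefore reflect only how these libraries varied, which may be technical.

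Phosphodiesterases end cyclic nucleotide signals by hydrolysing cAMP to AMP and cGMP to GMP. PDE4, PDE7 and PDE8 enzymes act on cAMP, PDE5 on cGMP, and PDE1 and PDE3 on both, PDE1 when calcium and calmodulin activate it and PDE3 under inhibition by cGMP. In vascular smooth muscle, cAMP and cGMP promote relaxation, adenosine can raise cAMP through receptors coupled to the stimulatory G protein, and PDE3, PDE4 and PDE5 are targets of drugs that prolong these signals.

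The libraries of a genotype were not equally alike. The biological coefficient of variation, which measures how far counts differ beyond counting noise, was 3.66% between KO libraries 2 and 3 and 3.49% between WT libraries 4 and 6. Between KO library 1 and the other libraries it was 43.7% to 48.0%, whichever their genotype, so KO library 1 stood apart. Exon reads numbered 19919095 to 22743666 in KO libraries and 20813477 to 23669252 in WT libraries. Nt5e itself had 22, 1 and 2 reads in KO libraries 1, 2 and 3, against 615, 688 and 486 in WT libraries 4, 5 and 6. Of the smooth muscle genes that the cell type label calls for, Acta2 had 1705, 11583 and 9859 reads in KO libraries 1, 2 and 3 and 1263 to 2180 in WT libraries, and Smtn and Tagln had at least 362 reads in every library. Myocd and Des had at most 4 reads in any library, and Myh11 had 5, 54 and 67 reads in KO libraries 1, 2 and 3 and at most 3 in WT libraries. Cnn1 was low and went the other way, with 5 to 14 reads in KO libraries and 32 to 69 in WT libraries. The 8 smooth muscle markers summed to 177, 698 and 671 normalised counts scaled to a common library size (CPM) in KO libraries 1, 2 and 3, against 136 to 206 CPM in WT libraries, a sum of which Acta2 alone made 73.8, 546 and 525 CPM in KO libraries and 51.9 to 101 CPM in WT libraries. The 8 markers of mesothelium and epithelium, which line body cavities and organs, summed to 69.6 to 192 CPM in KO libraries and 3011 to 3158 CPM in WT libraries. Among them Msln had 1016, 21 and 26 reads in KO libraries 1, 2 and 3, against 16784 to 19648 in WT libraries. Upk3b, Upk1b, Krt19 and Lrrn4 each had at least 9900 reads in every WT library and at most 1203 in any KO library. Krt14 had at most 5 reads in KO libraries and 847 to 1206 in WT libraries. Krt8 and Krt18 were at 0 reads in every KO library and near the floor in WT libraries, with 6 to 17 reads. The 6 fibroblast markers summed to 4029, 5609 and 5917 CPM in KO libraries 1, 2 and 3, against 3613 to 3730 CPM in WT libraries. Dcn and Col1a1 made most of that sum, and Dcn overlapped, at 2462 to 2948 CPM in KO and 2311 to 2647 CPM in WT libraries. Col1a1 stood at 747, 2090 and 2333 CPM in KO libraries 1, 2 and 3 and at 775 to 1027 CPM in WT libraries. Col1a1, Lum and Dpt were lowest in KO library 1 and highest in KO libraries 2 and 3. Pdgfra and Pi16 were higher in every KO library than in any WT library. Endothelial markers (5 genes) and leukocyte markers (4 genes) summed to at most 15.1 CPM in any library, with Ptprc and Adgre1 at 0 reads throughout. These differences lie beside every genotype difference given here, and their part in them was not tested. In RNA from bulk cultures, fewer cells of a type and less RNA per cell cannot be told apart.

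Of the 10 phosphodiesterase genes, 2 rose and 2 fell in KO cells. Pde3b and Pde4a were the rises, and Pde1a and Pde7a the falls. All 10 passed the filter on low counts. Over the 12660 genes tested, 27.8% were called, 14.1% as higher and 13.7% as lower, and for a list of this size 4 of 10 is read as no more than near that background (adjusted p under 0.05 by Benjamini-Hochberg, edgeR's quasi-likelihood test). When libraries were scaled by total counts alone, 40.1% of the called genes were higher in place of 50.7%, and the members still split into 2 higher and 2 lower. The median log2 fold change was 0.11 over the 10 genes and 0.02 over all tested genes. For 6 of the 10 genes all KO libraries lay above or below all WT libraries, 3 each way, which was so for 49.7% of all tested genes. The table holds these genes on chromosomes 2 (Pde1a), 3 (Pde5a and Pde7a), 4 (Pde4b), 6 (Pde3a), 7 (Pde3b and Pde8a), 9 (Pde4a, with Nt5e), 10 (Pde7b) and 13 (Pde4d).

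**Figure D1:**
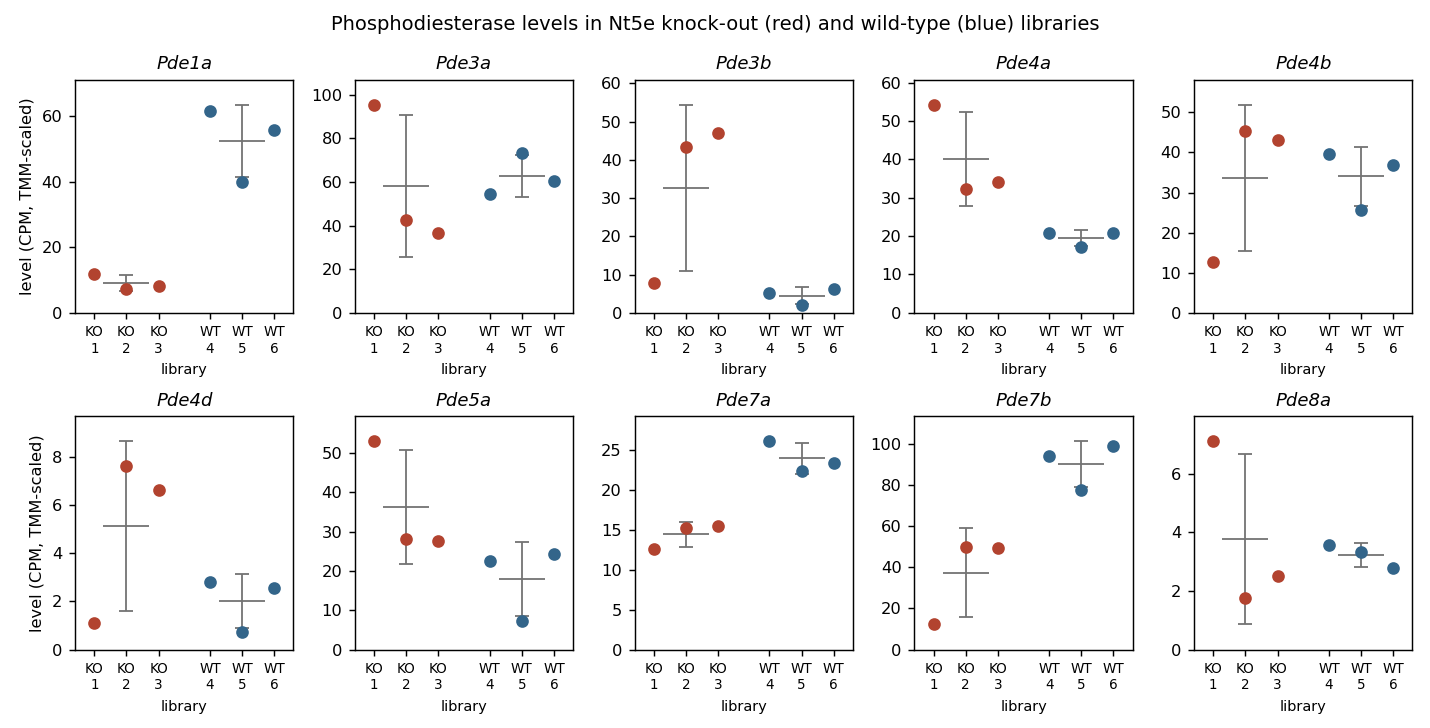
Level of each phosphodiesterase gene in every library, in CPM scaled by the trimmed mean of M values (TMM) on linear axes from 0. Red points are KO libraries 1 to 3 and blue points WT libraries 4 to 6, with the mean as a long line and the SD as bars (n = 3 each). Pde1a lay at 7.31 to 11.9 CPM in KO and 40.0 to 61.4 CPM in WT libraries, while Pde3b was high in KO libraries 2 and 3 only.

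When KO libraries 2 and 3, and WT libraries 4 and 6, were each summed to 1 sample, which leaves 2 samples per genotype, 0 of the 10 phosphodiesterase genes passed in edgeR, 3 of them with an unadjusted p under 0.05, and 17 of 13041 genes passed in all (0.13%). The log2 fold changes in that setting were -2.33 for Pde1a (adjusted p = 0.0945), 2.76 for Pde3b (0.271), 1.20 for Pde4a (0.164), -0.75 for Pde7a (0.169) and -1.47 for Pde7b (0.342). These 5 genes kept their directions, and the 4 calls ended. Summing libraries of the same title stem also left 2 samples per genotype. There these 5 genes passed in edgeR, beside 29.0% of all tested genes. In that setting KO libraries 2 and 3 stayed in different samples, as did WT libraries 4 and 6. The calls thus depend on which libraries are counted as separate samples.

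Promoter sequences, running from 250 bases before to 50 after a transcript start, were found for 7 of the 10 genes in RefSeq (GRCm38.p6), as 15 entries. Those at or nearest to the annotated start of the gene are shown for the rise Pde4a and the fall Pde1a, because these are the called members that have one and because they differ in base composition. Capitals mark the GC box GGGCGG, a motif bound by Sp-family factors, searched on both strands.
Pde4a (chr9:21165464-21165763, plus strand): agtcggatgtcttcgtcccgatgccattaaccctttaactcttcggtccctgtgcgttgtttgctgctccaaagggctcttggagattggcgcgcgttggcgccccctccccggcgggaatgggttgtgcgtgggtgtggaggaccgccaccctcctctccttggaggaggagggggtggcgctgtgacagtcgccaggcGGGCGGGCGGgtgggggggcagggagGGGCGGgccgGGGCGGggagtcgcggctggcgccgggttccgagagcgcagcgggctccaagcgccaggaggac
Pde1a (chr2:80129363-80129662, minus strand): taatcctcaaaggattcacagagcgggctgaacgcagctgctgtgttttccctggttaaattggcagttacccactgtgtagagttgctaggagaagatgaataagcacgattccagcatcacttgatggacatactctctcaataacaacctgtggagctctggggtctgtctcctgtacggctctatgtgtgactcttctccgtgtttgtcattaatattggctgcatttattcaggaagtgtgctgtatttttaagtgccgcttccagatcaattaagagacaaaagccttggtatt
The Pde4a sequence was 70.0% G and C and held 4 GC boxes, the first of which overlaps the next, while the Pde1a sequence was 44.3% G and C and held none. The other Pde4a entries were 64.0% and 55.0% G and C, with 1 and 0 GC boxes. The other Pde1a entries were 42.0% to 50.3% G and C and held none. Which start these cells use was not tested. Over all promoters of the table, 35.7% hold a GC box, and 4 of the 15 member entries did. The cAMP response element TGACGTCA, the site of CREB, was in 0 of the 15 entries and in 1.79% of all promoters, and its core TGACG was in 4 of the 15 and in 20.8%. The TATA box TATAAA was in 2 of the 15 and in 13.6%. These matches are letters in a window and say nothing of what binds there.

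Among PDE4 genes, which encode the rolipram-sensitive cAMP phosphodiesterases, Pde4a rose about 2-fold in KO cells, and Pde4b and Pde4d did not pass the test. Pde4a (ENSMUSG00000032177, chromosome 9, 21165714 to 21213248, GRCm38) stood at 54.3, 32.3 and 34.0 CPM in KO libraries 1, 2 and 3, against 20.8, 17.2 and 20.9 CPM in WT libraries 4, 5 and 6. KO library 1 was the highest, and every KO library lay above every WT library. The means were 40.2 ± 12.2 CPM in KO and 19.6 ± 2.11 CPM in WT (SD, n = 3 each), which is 1.04 ± 0.23 as a log2 fold change (SE; edgeR quasi-likelihood adjusted p = 0.0223), or 2.05-fold. Without KO library 1 the log2 fold change was 0.75 (adjusted p = 7.50e-04). The call ended without WT library 4, 5 or 6, with adjusted p up to 0.0834 by the same test.

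Pde4b stood at 12.6, 45.3 and 43.0 CPM in KO libraries 1, 2 and 3, against 39.6, 25.7 and 36.8 CPM in WT libraries 4, 5 and 6. KO library 1 was the lowest of all and KO libraries 2 and 3 the highest, so the genotypes overlapped and their means nearly coincided, at 33.6 ± 18.3 CPM in KO and 34.0 ± 7.40 CPM in WT. The log2 fold change was -0.02 ± 0.48 (adjusted p = 0.980, edgeR quasi-likelihood), and it was 0.37 without KO library 1 (adjusted p = 0.0986). Pde4d was a low gene, with 25, 162 and 125 exon reads in KO libraries 1, 2 and 3, against 63, 18 and 55 in WT libraries 4, 5 and 6. At 1.08, 7.64 and 6.65 CPM in KO libraries against 2.81, 0.740 and 2.55 CPM in WT libraries, KO libraries 2 and 3 exceeded every WT library and KO library 1 did not. Its log2 fold change of 1.33 ± 0.82 did not pass (edgeR quasi-likelihood adjusted p = 0.261) but was 1.81 without KO library 1 and passed there (adjusted p = 0.0133), a setting in which 66.2% of all genes were called. It also passed with the last title number as a covariate (1.17, edgeR adjusted p = 0.0245) and was 0.44 with the title number after the letter p (0.719).

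The ratio of Pde4b to Pde4a on the length-scaled RPKM values that the authors deposited was 0.132, 0.799 and 0.720 in KO libraries 1, 2 and 3, against 1.09, 0.850 and 1.00 in WT libraries 4, 5 and 6. Pde4a RNA thus exceeded Pde4b RNA in every KO library, most in library 1, and also in WT library 5. The pair stood near parity in WT libraries 4 and 6, and KO library 2 (0.799) lay close to WT library 5 (0.850).

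PDE7 genes encode high-affinity cAMP phosphodiesterases that rolipram does not block, and both were lower in KO cells, Pde7a past the test and Pde7b not. Pde7a (ENSMUSG00000069094, chromosome 3, 19223108 to 19311322, GRCm38) stood at 12.6, 15.2 and 15.5 CPM in KO libraries 1, 2 and 3, against 26.1, 22.4 and 23.4 CPM in WT libraries 4, 5 and 6. Its libraries were close within each genotype, KO library 1 included, and the genotypes did not overlap. It averaged 14.5 ± 1.59 CPM in KO and 24.0 ± 1.92 CPM in WT (SD, n = 3 each), 1.66-fold lower in KO (log2 fold change -0.73 ± 0.12, edgeR quasi-likelihood adjusted p = 0.0104). The call held without any 1 of 5 libraries and ended without WT library 4 (adjusted p = 0.0574).

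Among the 10 genes, Pde7b had the highest RPKM in all WT libraries. It stood at 12.4, 50.1 and 49.5 CPM in KO libraries 1, 2 and 3, against 93.9, 77.5 and 98.8 CPM in WT libraries 4, 5 and 6. Every KO library lay below every WT library, and KO library 1 lay far below the other two. Its log2 fold change of -1.27 ± 0.51, 2.42-fold lower in KO, did not pass (edgeR quasi-likelihood adjusted p = 0.113). It was -0.86 without KO library 1 and passed there (adjusted p = 5.33e-04), and it passed in DESeq2 (-1.28, adjusted p = 0.0290), with libraries of the same title stem summed (-1.22, edgeR adjusted p = 0.0335) and with either title number as a covariate (-1.49 and -1.86, edgeR adjusted p = 0.0337 and 0.0395).

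Pde8a, the gene of a high-affinity cAMP phosphodiesterase that common broad inhibitors do not block, was low in both genotypes. It stood at 7.10, 1.74 and 2.50 CPM in KO libraries 1, 2 and 3, against 3.57, 3.33 and 2.78 CPM in WT libraries 4, 5 and 6. KO library 1 was the highest and the other KO libraries the lowest, so the direction rested on library 1: the log2 fold change was 0.23 ± 0.54 with all libraries (edgeR quasi-likelihood adjusted p = 0.772) and -0.62 without KO library 1 (adjusted p = 0.0648).

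Pde1a, the calcium- and calmodulin-activated phosphodiesterase gene, was the only member called on exon reads whichever 1 library was left out. It fell to 11.9, 7.31 and 8.30 CPM in KO libraries 1, 2 and 3, against 61.4, 40.0 and 55.8 CPM in WT libraries 4, 5 and 6. The highest KO library was well below the lowest WT library. It averaged 9.18 ± 2.44 CPM in KO and 52.4 ± 11.1 CPM in WT (SD, n = 3 each), 5.70-fold lower in KO (log2 fold change -2.51 ± 0.25, edgeR quasi-likelihood adjusted p = 0.00260). Pde1a (ENSMUSG00000059173, chromosome 2, 79834453 to 80129458, GRCm38) kept its call without any 1 of the 6 libraries, with adjusted p up to 0.0191 and log2 fold changes of -2.76 to -2.37.

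The PDE3 genes, whose enzymes bind cAMP and cGMP and are the targets of milrinone and cilostazol, differed in which KO libraries were high. Pde3b (ENSMUSG00000030671, chromosome 7, 114415281 to 114539251, GRCm38) stood at 7.79, 43.5 and 47.0 CPM in KO libraries 1, 2 and 3, against 5.17, 2.01 and 6.35 CPM in WT libraries 4, 5 and 6. KO libraries 2 and 3 were 9.64-fold and 10.4-fold above the WT mean, while KO library 1 was 1.73-fold above it and just over the highest WT library. The fit over all libraries gave a 7.27-fold rise (log2 fold change 2.86 ± 0.77, edgeR quasi-likelihood adjusted p = 0.0412), and 3.33 without KO library 1 (adjusted p = 2.96e-04). The call ended without any 1 of the other 5 libraries (adjusted p up to 0.129), in limma-voom (2.62, adjusted p = 0.145) and with the title number after the letter p as a covariate (1.99, edgeR adjusted p = 0.0612).

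Pde3a, the PDE3 gene best known from heart, vessel and platelets, stood at 95.4, 42.3 and 36.6 CPM in KO libraries 1, 2 and 3, against 54.2, 73.4 and 60.5 CPM in WT libraries 4, 5 and 6. KO library 1 was the highest and KO libraries 2 and 3 the lowest of the 6. Its log2 fold change was -0.11 ± 0.38 (edgeR quasi-likelihood adjusted p = 0.848), but -0.67 without KO library 1, which passed (adjusted p = 0.00518). The RPKM ratio of Pde3b to Pde3a was 0.153, 1.92 and 2.40 in KO libraries 1, 2 and 3, against 0.179, 0.0513 and 0.196 in WT libraries 4, 5 and 6. Pde3b RNA exceeded Pde3a RNA in KO libraries 2 and 3, and KO library 1 lay within the WT range.

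Pde5a, the gene of the cGMP-specific enzyme that sildenafil blocks, stood at 53.0, 28.1 and 27.7 CPM in KO libraries 1, 2 and 3, against 22.6, 7.15 and 24.3 CPM in WT libraries 4, 5 and 6. All KO libraries were above all WT libraries, but KO libraries 2 and 3 were close to WT libraries 4 and 6, KO library 1 was high and WT library 5 was low. It averaged 36.3 ± 14.5 CPM in KO and 18.03 ± 9.46 CPM in WT (SD, n = 3 each), and its log2 fold change of 1.01 ± 0.51 did not pass (edgeR quasi-likelihood adjusted p = 0.185), nor did it without KO library 1 (0.63, adjusted p = 0.253).

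The share of all tested genes that was called, against which the members' calls in these settings are read, was 66.2% without KO library 1, 12.5% and 12.8% without KO libraries 2 and 3, and 8.71%, 13% and 10.8% without WT libraries 4, 5 and 6. It was 26.7% with total counts, 36.8% in DESeq2, 28.2% in limma-voom, 29.0% with title stems summed, 35.6% with the last title number as a covariate and 24.7% with the number after the letter p.

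**Figure D2:**
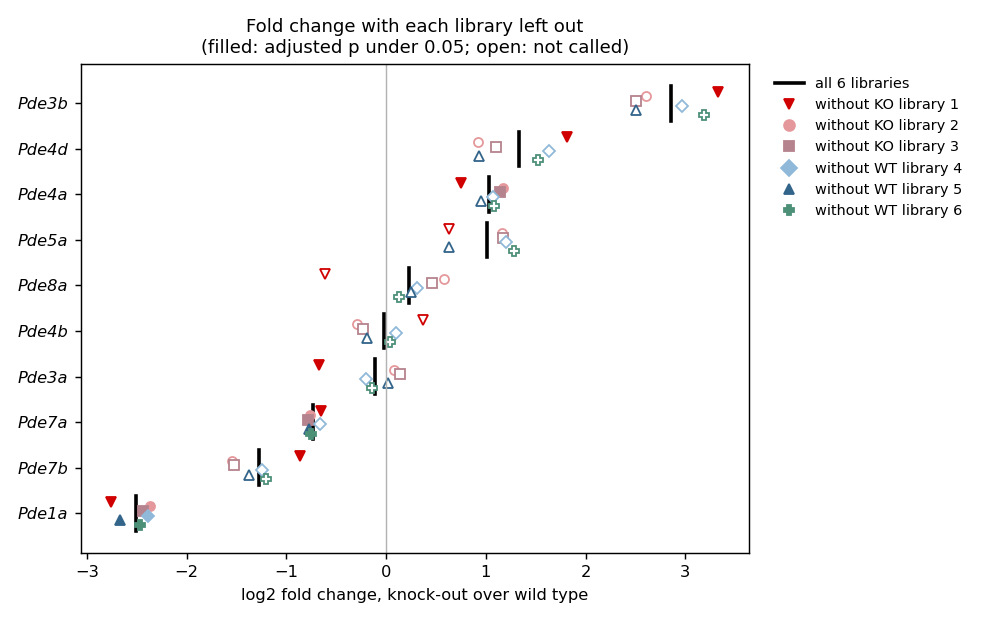
Log2 fold change (KO over WT, horizontal axis) of each phosphodiesterase gene with all 6 libraries (black bars) and with each library left out in turn (symbols, filled where the edgeR adjusted p is under 0.05). Pde1a is filled in all 6 settings, Pde3b only without KO library 1, and Pde8a lies on the negative side only without KO library 1.

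Levels of different genes were compared per exon length, on the deposited RPKM. In KO cells the order of means was Pde7b (6.79 ± 3.79), Pde4a (6.57 ± 2.34), Pde3b (4.41 ± 2.85), Pde3a (4.34 ± 2.64), Pde5a (4.13 ± 1.87), Pde4b (3.05 ± 1.59), Pde7a (1.95 ± 0.129), Pde1a (1.67 ± 0.528), Pde8a (0.919 ± 0.749) and Pde4d (0.633 ± 0.428; RPKM, mean ± SD, n = 3). In WT cells it was Pde7b (17.7 ± 2.31), Pde1a (9.99 ± 2.17), Pde3a (4.86 ± 0.727), Pde7a (3.44 ± 0.291), Pde4a (3.36 ± 0.382), Pde4b (3.32 ± 0.740), Pde5a (2.15 ± 1.13), Pde8a (0.809 ± 0.1003), Pde3b (0.656 ± 0.329) and Pde4d (0.272 ± 0.152). In KO cells neighbours in the order differed by no more than the larger of their SDs, so the order is loose, and library 1 ordered the genes differently. In WT cells neighbours differed by more than either SD, except that Pde7a, Pde4a and Pde4b could not be ranked among themselves, nor Pde8a against Pde3b. KO library 1 was led by Pde4a (9.27), Pde3a (7.38) and Pde5a (6.29 RPKM), whereas KO libraries 2 and 3 were led by Pde7b (9.03 and 8.93 RPKM).

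The summed RPKM of the 21 genes with catalytic phosphodiesterase activity towards cyclic nucleotides was 36.2, 37.8 and 38.2 in KO libraries 1, 2 and 3, against 54.2, 43.4 and 54.2 in WT libraries 4, 5 and 6. The 10 genes described here held 91.5% to 93.1% of that sum in KO libraries and 89.7% to 92.9% in WT libraries. The sum was lower in every KO library than in any WT library. So were the shares of Pde7b, Pde1a and Pde7a and of the minor gene Pde1b. RPKM is not scaled by TMM, so the size of the gap in the sum depends on the scaling, whose part was not tested. Shares within a library do not depend on it. Pde7b held 6.69%, 23.9% and 23.4% of the sum in KO libraries 1, 2 and 3, against 34.1%, 34.7% and 35.9% in WT libraries 4, 5 and 6. Pde1a held 6.27%, 3.38% and 3.80% in KO libraries, against 21.6%, 17.4% and 19.7% in WT libraries in the same order. Pde7a held 4.99% to 5.36% in KO libraries, against 6.22% to 7.34% in WT libraries. Pde1b held at most 0.261% in KO libraries and 0.754% to 1.92% in WT libraries. Among shares that were larger in every KO library than in any WT library were those of Pde4a, at 25.6%, 13.5% and 14.01% against 6.58% to 6.73% in WT libraries, and of Pde3b, at 3.12%, 15.4% and 16.4% against 0.669% to 1.71%. The shares of Pde5a (7.92% to 17.4% in KO libraries, against 1.95% to 5.36% in WT libraries) and of the minor gene Pde10a (0.684% to 1.008%, against 0.366% to 0.608%) were larger as well.

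The cAMP-specific families PDE4, PDE7 and PDE8 held 50.7%, 59.1% and 59.0% of the sum in KO libraries 1, 2 and 3, against 60.2% to 61.0% in WT libraries. The dual-substrate families held 31.7% to 32.8% in KO libraries, against 32.5% to 37.6% in WT libraries. The cGMP-specific families were mostly Pde5a, with smaller parts from Pde9a, Pde6a, Pde6b and Pde6c. They held 17.6%, 8.45% and 8.15% in KO libraries 1, 2 and 3, against 6.44%, 2.12% and 6.55% in WT libraries 4, 5 and 6. The genotypes did not overlap for this share. Pde9a held 0% to 0.291% of the sum in KO libraries and 1.47%, 0.119% and 1.13% in WT libraries 4, 5 and 6. These shares describe RNA and not enzyme activity.

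**Figure D3:**
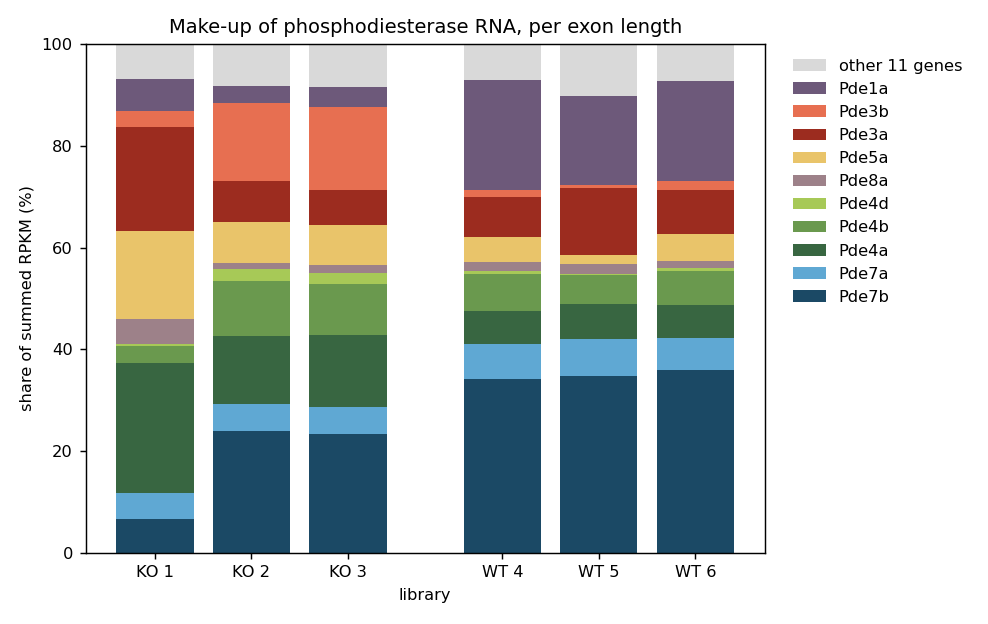
Share (%) of the summed RPKM of the 21 catalytic phosphodiesterase genes held by each gene, with 1 stacked bar per library, KO libraries 1 to 3 on the left and WT libraries 4 to 6 on the right. Pde7b and Pde1a held 34.1% to 35.9% and 17.4% to 21.6% in WT libraries and less in every KO library. KO library 1 differs from KO libraries 2 and 3 in Pde1a, Pde3a, Pde3b, Pde4a, Pde4b, Pde4d, Pde5a, Pde7b and Pde8a.

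Reads within introns give another readout of the same libraries, so they are not independent samples. Which RNA these reads come from was not tested. For Nt5e they did not follow the exon reads, with 37 intron reads over the KO libraries and 34 over the WT libraries. Its exon reads summed to 25 in KO and 1789 in WT libraries. Popdc2, given below, was another gene whose intron reads did not follow its exon reads. On intron reads 3 of the 10 genes passed, 1 higher and 2 lower, where 12% of the 10653 genes tested were called. Pde1a had 54, 25 and 27 intron reads in KO libraries 1, 2 and 3, against 226, 137 and 246 in WT libraries 4, 5 and 6, a log2 fold change of -2.50 ± 0.37 (edgeR quasi-likelihood adjusted p = 0.00396) that is close to its exon value. Pde4a had 155, 113 and 83 against 52, 45 and 56 in the same order, and rose there too (1.22 ± 0.28, adjusted p = 0.0250). Pde7b, which missed the threshold on exon reads, had 23, 59 and 44 intron reads in KO libraries 1, 2 and 3, against 155, 129 and 120 in WT libraries 4, 5 and 6, and fell (-1.70 ± 0.26, edgeR adjusted p = 0.00433). Leaving out KO libraries 1, 2 and 3 in turn called 32.5%, 6.15% and 6.28% of all genes on introns, leaving out WT libraries 4, 5 and 6 called 4.68%, 5.59% and 5.53%, and summing the nearly identical pairs called 1.42%, with 0 of the members in edgeR and 4 at an unadjusted p under 0.05. The intron calls of Pde1a and Pde7b held without any 1 library, and that of Pde4a ended without KO library 2 or WT library 4, 5 or 6 (adjusted p up to 0.106).

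For Pde3b the exon and intron readouts differed in size. Its intron reads were 22, 25 and 26 in KO libraries 1, 2 and 3, against 12, 4 and 13 in WT libraries 4, 5 and 6, so KO library 1 was as high as libraries 2 and 3, unlike in exon reads, where it had 180 against 923 and 883. The intron log2 fold change was 1.32 ± 0.42 (edgeR adjusted p = 0.0813) beside 2.86 ± 0.77 on exons, and the difference between the readouts was not tested. Reads across Pde3b exon junctions followed the exon reads, with 55, 415 and 424 in KO libraries 1, 2 and 3, against 36, 21 and 57 in WT libraries 4, 5 and 6. Pde7a fell by 0.61 ± 0.17 on introns (edgeR adjusted p = 0.0546), beside a fall of 0.73 on exons, and Pde4d had an intron log2 fold change of 1.06 ± 0.39 (adjusted p = 0.118). Pde4b had a negative intron value (-1.10 ± 0.38, edgeR adjusted p = 0.102) where its exon value was near 0. Pde3a (-0.51 ± 0.55), Pde5a (0.16 ± 0.64) and Pde8a (0.60 ± 0.32) did not pass on introns either, with 6 to 66 intron reads a library for Pde3a and Pde8a and 3 to 35 for Pde5a.

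**Figure D4:**
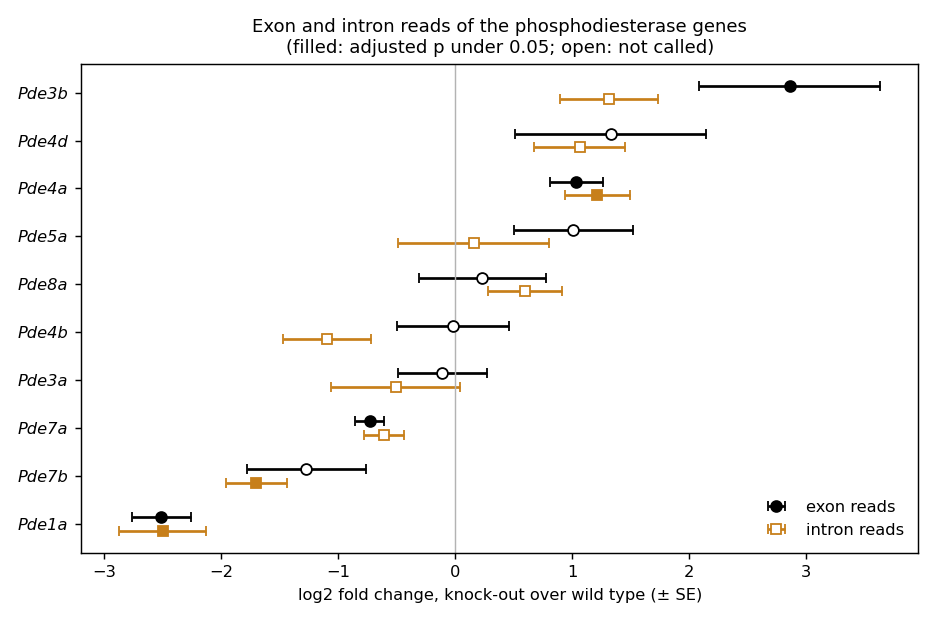
Log2 fold change (KO over WT, horizontal axis, bars ± SE) of each phosphodiesterase gene on exon reads (black circles) and intron reads (orange squares), filled where the edgeR adjusted p is under 0.05. The readouts lie close together for Pde1a (-2.51 and -2.50) and Pde4a (1.04 and 1.22) and apart for Pde3b (2.86 and 1.32) and Pde4b (-0.02 and -1.10).

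The genes whose log2 CPM went most nearly in step with the 3 called members of largest change were looked up among 11366 genes with a mean of at least 50 reads, as a description over 6 libraries that share the genotype split and the nearly identical pairs. For Pde3b they were Adgrg6 and Cct2 (Pearson r = 0.999 for both), for Pde1a Fibin and Cacnb1 (0.998 and 0.997), and for Pde4a Gstm2 and Fbxl6 (0.999 and 0.998). With so few libraries such values were common: 52 genes exceeded 0.99 for Pde3b, 52 for Pde1a and 38 for Pde4a.

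Of 14 further phosphodiesterase genes, 5 passed the filter on low counts and 1, Pde1b, differed (20% called, against 27.8% of all tested genes). Pde1b, the calmodulin-activated relative of Pde1a, fell to 11, 1 and 1 exon reads in KO libraries 1, 2 and 3, against 46, 103 and 53 in WT libraries 4, 5 and 6 (log2 fold change -3.84 ± 0.86, edgeR quasi-likelihood adjusted p = 0.0237). It lay in the direction of Pde1a in every KO library, but its reads are few and its call ended without any 1 library other than KO library 1 (adjusted p up to 0.0824). Pde2a, the cGMP-stimulated enzyme, had 40, 195 and 176 reads in KO libraries, against 69, 209 and 53 in WT libraries (0.52, edgeR adjusted p = 0.635). Only 1.48% of these exon reads were unique to Pde2a, so its level, and its 0.967% to 4.79% of the summed RPKM, are uncertain. Pde8b (-0.51, adjusted p = 0.215), Pde10a (0.54, 0.298) and Pde6d (-0.05, 0.661 in the same edgeR test), which encodes a prenyl-binding protein and not a catalytic subunit, did not pass either. Below the filter, Pde9a, a cGMP-specific enzyme, had 0, 6 and 2 reads in KO libraries, against 42, 3 and 31 in WT libraries. Pde1c and Pde4c had 0 reads in every library.

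Around the phosphodiesterases, a list of 51 genes of cyclic nucleotide synthesis, response, anchoring and export was counted in the same fit. Of its 40 tested members 14 rose and 7 fell (52.5% called, against 27.8% of all tested genes), with a median log2 fold change of 0.17. The list was chosen with earlier results of these data known, so the larger share is not read as a result about the pathway. With the nearly identical pairs summed, 0 of 41 passed in edgeR, 18 of them having an unadjusted p under 0.05. Leaving out 1 library gave 7 to 30 calls, the most without KO library 1. On the synthesis side, 0 of 7 adenylyl cyclases passed with edgeR, 2 of them having an unadjusted p under 0.05, and DESeq2 called 1 and limma-voom 0. Without KO library 1 edgeR called 4 of the 7, and it called 1 with total counts, with unique exon reads, with title stems summed or with the last title number as a covariate. Of 5 guanylyl cyclase genes 2 rose and 2 fell, and of 2 genes of stimulatory G proteins 1 rose, Gnas, of whose exon reads 34.9% were unique.

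Guanylyl cyclases make the cGMP that PDE5 hydrolyses. Npr1, the receptor of atrial natriuretic peptide, fell to 1.77, 0.377 and 0.479 CPM in KO libraries 1, 2 and 3, against 31.3, 31.8 and 36.4 CPM in WT libraries 4, 5 and 6 (log2 fold change -5.20 ± 0.57, edgeR adjusted p = 0.00332). Gucy1a1, a subunit of the nitric oxide receptor, fell to 34.1, 9.90 and 10.7 CPM in KO libraries, against 145, 128 and 155 CPM in WT libraries (-2.96 ± 0.53, edgeR adjusted p = 0.0122, lost without WT library 4 at 0.0528). Npr2, the receptor of C-type natriuretic peptide, rose to 206, 120 and 127 CPM in KO libraries, against 40.2, 38.4 and 43.0 CPM in WT libraries (1.90 ± 0.23, edgeR adjusted p = 0.00414). The calls of Npr1 and Npr2 held without any 1 library but ended with the nearly identical pairs summed (edgeR adjusted p = 0.105 and 0.0946), as did all calls of the pathway list.

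On the response side, 4 of 4 tested cAMP effectors other than kinase A rose on exon reads, where 14.1% of all tested genes were called higher. They were the exchange factor Rapgef3 (EPAC1) and the Popeye genes Popdc2, Popdc3 and Bves. Popdc2 is counted here on exon reads alone, and its intron reads are given below. Rapgef3 stood at 63.0, 84.98 and 83.3 CPM in KO libraries 1, 2 and 3, against 38.4, 28.6 and 36.4 CPM in WT libraries 4, 5 and 6 (log2 fold change 1.16 ± 0.17, edgeR adjusted p = 0.00664), without overlap. The call of Bves ended without WT library 4 (edgeR adjusted p = 0.0524) and that of Popdc2, which had 36 reads over the KO libraries and 6 over the WT libraries, without KO library 2 or 3 or WT library 4 or 6 (up to 0.0672). On introns Popdc2 was called the opposite way and on far more reads, with 62, 32 and 19 in KO libraries 1, 2 and 3, against 1286, 1856 and 1111 in WT libraries 4, 5 and 6 (log2 fold change -5.19 ± 0.44, edgeR adjusted p = 2.64e-04), so no direction is drawn for this gene. Rapgef3 was called higher on introns too (1.05 ± 0.24, edgeR adjusted p = 0.0250), Popdc3 was not called (edgeR adjusted p = 0.215) and Bves was below the filter there. Of 8 genes of kinase A and its inhibitors 2 rose and 2 fell, and of the 2 cGMP kinase genes 1 rose and 1 fell. Among 10 anchors 3 rose and 2 fell. These short lists stand beside 27.8% of all tested genes called either way. Akap12 stood at 205, 678 and 704 CPM in KO libraries, against 15.9, 13.5 and 16.5 CPM in WT libraries (5.11 ± 0.54, edgeR adjusted p = 0.00299). Akap9, an anchor of kinase A and PDE4D at the centrosome and Golgi, fell slightly to 98.4 to 103 CPM in KO libraries, against 133 to 139 CPM in WT libraries (-0.44 ± 0.06, edgeR adjusted p = 0.00635). Akap5 fell by 1.58 ± 0.33 (edgeR adjusted p = 0.0196), a call that ended without any 1 library other than KO library 1 (up to 0.0752).

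Abcc4, the MRP4 pump that exports cyclic nucleotides and thus lowers them by a route other than hydrolysis, rose to 22.2, 21.4 and 20.2 CPM in KO libraries 1, 2 and 3, against 5.57, 6.33 and 6.11 CPM in WT libraries 4, 5 and 6. KO library 1 did not stand apart for this gene, and the groups were far from overlapping (log2 fold change 1.82 ± 0.11, edgeR adjusted p = 7.00e-04). Abcc4 lies on chromosome 14, where the median log2 fold change of tested genes exceeded the median over all genes by 0.38. Its call held without any 1 library, as did those of Rapgef3, Akap12 and Akap9. With the pairs summed their adjusted p in edgeR was 0.0679 for Abcc4, 0.134 for Rapgef3, 0.1002 for Akap12 and 0.179 for Akap9.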

How the data were processed

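Per the labels' protocols, a stranded poly(A) kit was used on 1 ug of total RNA per library. The deposited table holds whole-number counts made by the authors (exon, unique exon, exon junction and intron reads per gene) and RPKM by the authors, with exon lengths, and no sample columns went unused (0). RPKM was used to compare levels between genes and for the sums, shares and ratios given per library, and it is not scaled by TMM. The submitters' processing notes name GRCm38 (mm10) as the build. Neither aligner nor counter nor strand setting is given in the sources used here. All 10 members held unique exon reads alone.

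Exon counts entered edgeR 4.0.16 under R 4.3.3 (filterByExpr with a minimum count of 10, TMM, quasi-likelihood F test on genotype, Benjamini-Hochberg over all tested genes, threshold 0.05), and intron counts likewise. SEs were taken as the absolute log2 fold change over the root of F. CPM are TMM-scaled counts, with a prior count of 2 in log2 CPM. The fit was tested on simulated data with independent libraries and the same dispersion for every gene. That simulation does not cover nearly identical pairs or a library that stands apart. Alternatives were DESeq2 1.42.0, limma-voom (limma 3.58.1), other scalings, filters (none, or 50 reads in 3 libraries) and read classes, title numbers as covariates, summed libraries and leaving out each library. The meaning of the title numbers is not given in the labels. Figures used matplotlib 3.10.9 in Python 3.11.15.

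The members and gene lists were chosen with earlier results of these data known. Named genes are all members, other phosphodiesterases past the filter, up to 4 rises and 4 falls of smallest p from the pathway list, and the 2 genes most like each of the 3 called members of largest change. Pde9a, Pde1c, Pde4c, Gnas, Popdc2, Popdc3 and Bves were named after their values were seen.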

Additional observations from a re-analysis of the deposited data

How the results depend on the processing

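Of 260 values of single members under alternatives, 215 kept their direction and side of the threshold, 22 lost a call, 12 gained one and 11 changed sign. With the nearly identical pairs summed, calls in edgeR were 17 over all genes and 0 among members (3 with an unadjusted p under 0.05), 0 in the pathway list (18 of 41) and 0 among members on introns (4 of 10). Leaving out 1 library gave 1120 to 8486 called genes, 1 to 7 members, 7 to 30 pathway genes and 2 to 7 members on introns, the highest without KO library 1 in each case. The sign changes were in genes that did not pass with all libraries. With 1 library left out, the log2 fold change of Pde3a ran from -0.67 to 0.14 (above 0 without KO library 2 or 3 or WT library 5), that of Pde4b from -0.29 to 0.37 (above 0 without KO library 1 or WT library 4 or 6), that of Pde8a from -0.62 to 0.58 (below 0 without KO library 1) and that of Pde5a on introns from -0.34 to 1.09 (below 0 without KO library 2 or WT library 5). Pde3a was at 0.046 with pairs summed, and Pde8a at -0.011 with the last title number as a covariate. The cause of these changes was not tested. Sample numbers are not shared between KO and WT, while the title numbers are, with no meaning given: with the last one, or the one after the letter p, as a covariate, 4510 and 3122 genes and 6 and 4 members were called. Reads in a library went down to 18 for Pde4d and 37 for Pde8a on exons and to 3 for Pde5a on introns.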
